A study of Homo sapiens with 8 samples.

Results

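Of the 28520 rows in each deposited expression table, 46 were genes of DNA replication and of the passage from G1 into S phase, chosen by gene symbol and arranged here by role. They comprised the 6 subunits of the MCM2-7 helicase, 6 factors that turn the helicase on, 4 origin licensing factors, 6 polymerase and primase subunits, 8 proteins of the sliding clamp, its loader and strand processing, 4 enzymes of nucleotide supply, 4 cyclins and E2F factors, 6 proteins that handle chromatin and histone mRNA, and 2 factors of the replication fork checkpoint. All 46 had a row of their own in every table and all passed the filter of a mean of at least 1 FPKM over the libraries, which 12110 rows passed.

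The libraries came from 4 established lines of human pancreatic ductal adenocarcinoma (PDA), the main cancer of the pancreas: Panc10.05, Panc05.04, Panc8 and HPAF-II. The titles of the samples spell the Panc names with a further dot (after Panc), left out here. In each line, cells transfected with a small interfering RNA (siRNA) that targets PDX1, which encodes a homeobox factor needed for the pancreas to form and for beta cells to work, were set against cells transfected with a control siRNA. All cells were harvested 3 days after transfection and total RNA was sequenced, with 1 library per line and treatment. The 4 lines were therefore the replicates of the treatment, and a difference within a line has no replicate check.

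Before S phase, the origin recognition complex, CDC6 and CDT1 load the MCM2-7 ring onto DNA; CDC45 and the GINS complex then join it to form the active helicase. Polymerases, the PCNA clamp and its loader copy the opened strands, while ribonucleotide reductase and the thymidylate enzymes supply the building blocks. E2F transcription factors, held back by the retinoblastoma protein until cyclin-dependent kinases act on it, turn on most of these genes together, so that in growing cells their mRNAs rise and fall as a group. In PDA, loss of CDKN2A, a brake on this step, is common.

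E2F factors bind short motifs close to the start site, so the 100 bases before the annotated start are shown for the 3 genes with the lowest mean log2 ratio across lines that held such a motif (UHRF1, TYMS and HELLS). Those of CDT1 and PRIM1, the genes least lowered in Panc10.05, were added after their values were seen. Capitals mark a match to TTTGGCGC, TTTCCCGC, TTTCGCGC or TTTGCCGC on either strand. Sequences are from RefSeq on GRCh38.p14, read 5′ to 3′ on the strand of the gene.
UHRF1 (chr19:4909401-4909500, plus strand): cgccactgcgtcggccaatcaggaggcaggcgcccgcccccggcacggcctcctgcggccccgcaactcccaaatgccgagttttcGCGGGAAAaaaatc
TYMS (chr18:657553-657652, plus strand): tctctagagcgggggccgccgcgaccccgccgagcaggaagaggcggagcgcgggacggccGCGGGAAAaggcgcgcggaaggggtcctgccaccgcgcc
HELLS (chr10:94545688-94545787, plus strand): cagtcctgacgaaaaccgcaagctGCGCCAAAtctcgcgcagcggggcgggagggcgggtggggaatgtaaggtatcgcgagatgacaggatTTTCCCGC
CDT1 (chr16:88803689-88803788, plus strand): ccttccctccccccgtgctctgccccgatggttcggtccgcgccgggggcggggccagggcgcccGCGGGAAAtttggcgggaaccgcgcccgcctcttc
PRIM1 (chr12:56752324-56752423, minus strand): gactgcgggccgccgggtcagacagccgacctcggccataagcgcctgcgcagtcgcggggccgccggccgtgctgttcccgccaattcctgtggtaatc

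HELLS held 2 matches, which began 76 and 8 bases before the start, and the single matches of UHRF1, TYMS and CDT1 began 14, 39 and 35 bases before it. UHRF1 had 3 annotated promoters, of which the first is shown. Another of them held a match that began 160 bases before its own start. No match fell in the window of PRIM1 from 250 bases before to 50 bases after the start. Of the 46 genes, 41 were found in the promoter table and 24 of these (58.5%) held at least 1 match in that window, against 6.74% of the 8935 tested genes found there by symbol and 3.31% of all 35116 promoters. Neighbouring motifs can overlap, and a match describes the letters only.

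Across the whole tables, the median log2 ratio of PDX1 siRNA over control siRNA among tested genes lay within 0.03 of 0 in every line, while its SD over genes was 0.494 in Panc10.05, 0.324 in Panc05.04, 0.408 in Panc8 and 0.248 in HPAF-II. FPKM summed to between 371300 and 428800 per library. The spacing of the lowest values put the depth of PDX1 siRNA over control siRNA libraries at 0.966, 0.841, 0.629 and 1.39 in the same order of lines, an unsure estimate that rested on the commonest of many spacings. The 5 epithelial markers were all found, though Panc05.04 had only 0.92 and 1.55 FPKM of KRT19 and 2.12 and 1.40 FPKM of CDH1 in its PDX1 siRNA and control siRNA libraries. Fibroblast, leukocyte and endothelial lists reached 1 FPKM in any library with 1 of 6, 2 of 5 and 0 of 3 markers, and the leukocyte marker PTPRC was at or near 0 throughout.

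The targeted gene, PDX1, was lower in the PDX1 siRNA library of 4 of 4 lines, at very different levels. It had 0.0998, 0.416, 0.372 and 5.37 FPKM in the PDX1 siRNA libraries of Panc10.05, Panc05.04, Panc8 and HPAF-II, against 0.188, 1.41, 0.914 and 9.61 FPKM in their control siRNA libraries. Both libraries of Panc10.05 and of Panc8 were under 1 FPKM, and the drop in FPKM was smallest in Panc10.05. As a share of control, PDX1 was left at 53.06%, 29.55%, 40.68% and 55.93% in the same order of lines. Its q-value in the authors' deposited tables was 0.9987 or higher in every line, and its limma adjusted p across lines was 0.8975.

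With PDX1 siRNA, the replication genes were lower as a group in Panc10.05 and stayed near their control levels in the other 3 lines. In Panc10.05 all 46 were lower than with control siRNA, where 50.5% of all tested genes were, with a median log2 ratio of -0.84 and a range of -1.43 for the chromatin remodeller HELLS to -0.01 for the licensing factor CDT1. Their FPKM summed to 1065 with PDX1 siRNA and to 1903 with control siRNA in that line. Log2 ratios are of FPKM + 1, which understates differences of genes at low FPKM. In bulk RNA, fewer cells in S phase and less of these mRNAs per cell cannot be told apart.

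In the other lines the group split both ways. Panc8 had 34 of 46 genes lower (51.1% of all tested genes), with a median of -0.12 and ratios from -0.67 for GINS4 to 0.17 for RRM2. HPAF-II had 33 of 46 lower (44.7% of all), with a median of -0.06 and ratios from -0.32 for LIG1 to 0.24 for GINS2. In Panc05.04, 29 of 46 were higher (63.0% of them, near the 55.8% of all tested genes), with a median of 0.07 and ratios from -0.34 for E2F2 to 0.46 for GINS1.

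**Figure D1:**
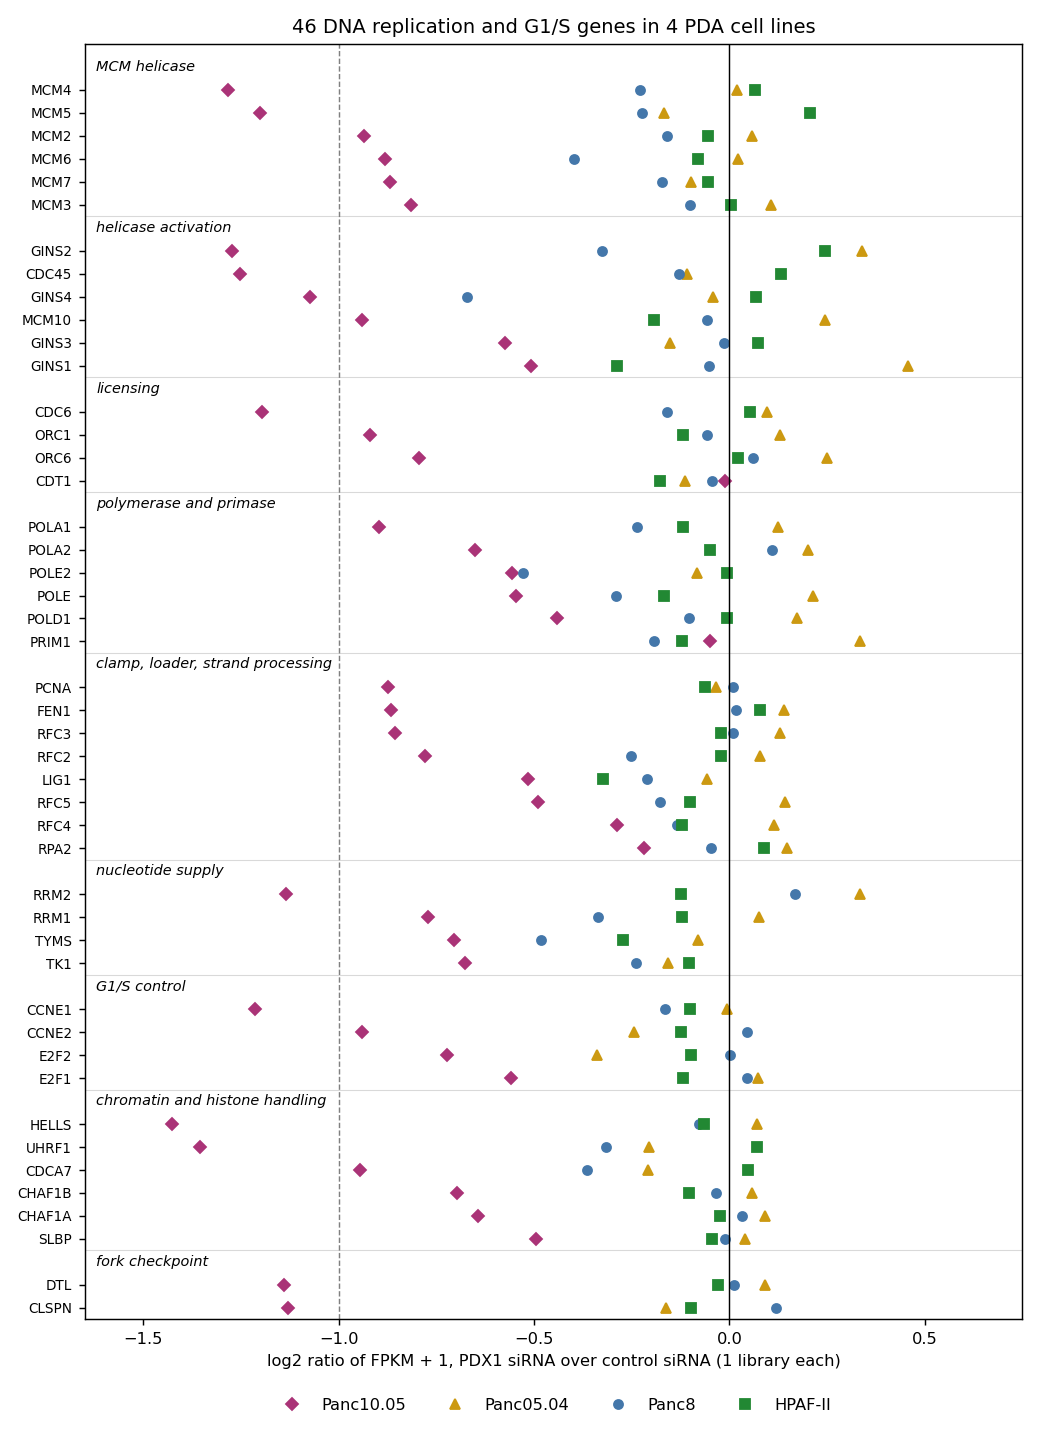
Log2 ratio of FPKM + 1, PDX1 siRNA over control siRNA, for the 46 genes by role; each symbol is 1 cell line with 1 library per treatment, the solid line marks no difference and the dashed line a 2-fold lower value. The diamonds of Panc10.05 all lie left of 0, at a median of -0.84, while the other 3 lines scatter around 0 with medians between -0.12 and 0.07.

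Sizes followed the same split. In Panc10.05, 39 of 46 genes had a ratio of -0.5 or lower, against 10.8% of all tested genes, and 12 were at least 2-fold lower, against 1.54% of all. Those 12 were MCM4, MCM5, CDC45, GINS2, GINS4, CDC6, RRM2, CCNE1, UHRF1, HELLS, CLSPN and DTL. Without the added 1, 16 were at least 2-fold lower on FPKM (2.57% of all tested genes), MCM10, POLA1, CCNE2 and E2F2 being the further 4. In Panc8 only GINS4 and POLE2 reached -0.5 (1.96% of all tested genes), and in HPAF-II and Panc05.04 none passed 0.5 in either direction, where 0.859% and 3.05% of all tested genes were at or below -0.5 and 0.966% and 2.21% at or above 0.5. In the authors' deposited tables, which compare 2 libraries, no member reached a q-value of 0.05 in any line; lower at that q were 0.00826%, 0.157%, 0.0495% and 0.0% of all tested genes in Panc10.05, Panc05.04, Panc8 and HPAF-II. In the same tables, 18 of the 46 were lower at an unadjusted p under 0.05 in Panc10.05 (1.95% of all tested genes), and none in Panc05.04 (1.57%), Panc8 (0.388%) or HPAF-II (0.652%). The smallest member q in the authors' deposited tables was 0.3228, for HELLS in Panc10.05.

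**Figure D2:**
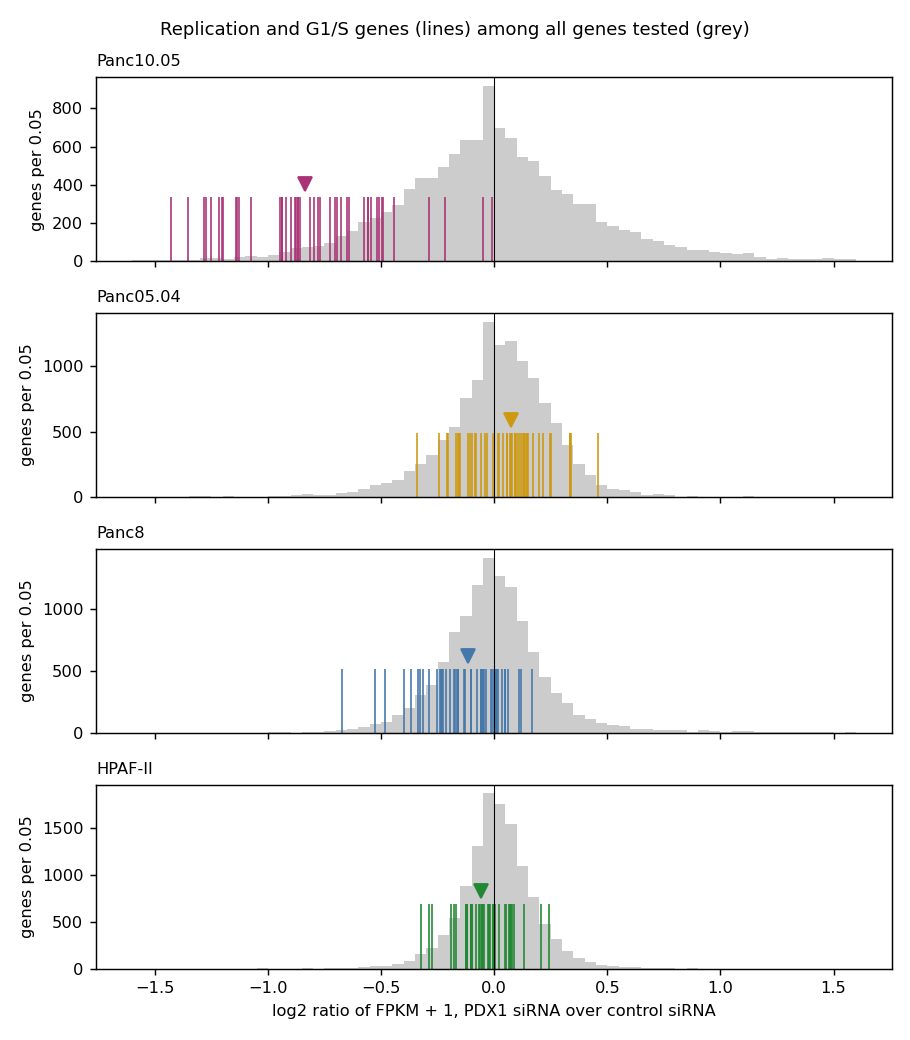
Histograms (grey, genes per bin of 0.05, ratios beyond the axis not drawn) of the log2 ratio of FPKM + 1, PDX1 siRNA over control siRNA, of the 12110 tested genes in each line, with the 46 replication and G1/S genes as coloured lines of fixed height and their median as a triangle. In Panc10.05 most coloured lines sit in the lower tail, with a median of -0.84, and CDT1 and PRIM1 lie near 0. In the other cell lines most members lie within the main body of the histogram. GINS4 (-0.67) and POLE2 (-0.53) lie in its lower tail in Panc8.

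The MCM2-7 helicase, the ring that unwinds DNA at the fork, was lower in Panc10.05 in all 6 subunits. Their summed level was 253.5, 269.4, 383.3 and 163.6 FPKM in the PDX1 siRNA libraries of Panc10.05, Panc05.04, Panc8 and HPAF-II, against 515.3, 271.5, 440.7 and 164.1 FPKM in the control siRNA libraries. The Panc10.05 control was thus the highest of the 8 libraries, and its PDX1 siRNA partner stood below both Panc8 libraries and close to Panc05.04. All 6 subunits were lower in Panc8 too, with a median ratio of -0.20, while 3 of 6 were lower in HPAF-II and 2 of 6 in Panc05.04.

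Among single subunits, MCM4 had 44.5, 59.3, 66.0 and 31.2 FPKM in the PDX1 siRNA libraries, in the line order used above, against 109.6, 58.5, 77.6 and 29.8 FPKM in the controls. MCM5 had 36.2, 36.1, 62.6 and 16.4 FPKM with PDX1 siRNA, against 84.6, 40.7, 73.3 and 14.1 FPKM with control siRNA. In both genes the treatments overlapped across lines, and the Panc10.05 pair alone differed by more than 2-fold (ratios of -1.28 and -1.20). MCM6, which had the lowest level of the 6 in all 8 libraries, had 25.7, 26.1, 28.2 and 12.8 FPKM with PDX1 siRNA and 48.2, 25.7, 37.4 and 13.6 FPKM with control siRNA; its ratio of -0.40 in Panc8 was the lowest of the ring there.

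The subunits kept much of their order while the sum differed. MCM7 was the highest in 7 of 8 libraries, the exception being MCM4 in the PDX1 siRNA library of Panc05.04. In Panc10.05 the highest subunit exceeded the lowest 3.01-fold with PDX1 siRNA and 2.95-fold with control siRNA, although single ratios there ranged from -0.82 for MCM3 to -1.28 for MCM4. The ratios spread over the 6 subunits with an SD of 0.20 in Panc10.05 and of 0.10 to 0.11 in the other lines. Exons of MCM7 and AP4M1 overlap on opposite strands, and no source used here states whether the libraries were stranded, so reads of these genes may not be separated.

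**Figure D3:**
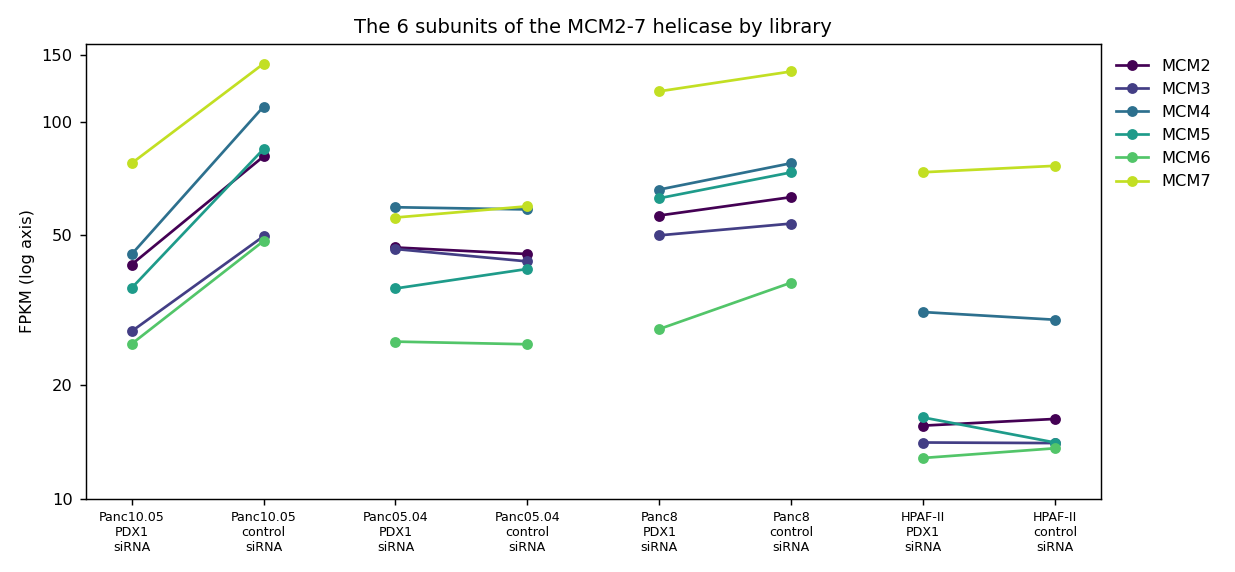
FPKM (log axis) of the 6 MCM2-7 subunits in the 8 libraries, with PDX1 siRNA left of control siRNA in each line and 1 library per point. The lines slope steeply only in Panc10.05, where the summed level was 253.5 FPKM with PDX1 siRNA and 515.3 with control siRNA, and MCM6 is lowest throughout.

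The factors that activate the helicase gave one of the widest spreads between lines. Their median ratio in Panc10.05 was -1.01, with all 6 at or below -0.5, against 0.10 in Panc05.04, -0.09 in Panc8 and 0.07 in HPAF-II. GINS2, a subunit of the 4-part GINS complex, had 12.9, 29.5, 20.4 and 6.29 FPKM with PDX1 siRNA, against 32.5, 23.1, 25.8 and 5.16 FPKM with control siRNA. It was lower in Panc8 and Panc10.05 and higher in HPAF-II and Panc05.04. CDC45, the partner of GINS in the active helicase, had 4.77, 9.18, 22.8 and 4.76 FPKM with PDX1 siRNA and 12.7, 9.96, 25.0 and 4.25 FPKM with control siRNA, and its highest values were both of Panc8.

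GINS4 combined the lowest ratio of Panc8 (-0.67) with one of -1.07 in Panc10.05. It had 2.50, 12.9, 3.94 and 2.71 FPKM with PDX1 siRNA, against 6.37, 13.3, 6.87 and 2.54 FPKM with control siRNA, so that both Panc05.04 libraries stood above the other 6. GINS1, of the same complex, had 16.7, 16.2, 32.6 and 13.4 FPKM with PDX1 siRNA and 24.1, 11.5, 33.8 and 16.6 FPKM with control siRNA. Its ratio of 0.46 in Panc05.04 was the highest of any member in any line, beside -0.51 in Panc10.05. MCM10, which helps the helicase open the origin, had 3.85, 12.7, 10.3 and 3.11 FPKM and 8.30, 10.5, 10.8 and 3.69 FPKM in the 2 treatments, PDX1 siRNA given first, with a ratio of 0.24 in Panc05.04 and -0.94 in Panc10.05. GINS3 lay between -0.57 in Panc10.05 and 0.07 in HPAF-II.

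Origin licensing held the sharpest contrast between members of one step. CDC6, the ATPase that loads the ring together with CDT1, had 13.9, 13.3, 28.3 and 16.6 FPKM with PDX1 siRNA, against 33.2, 12.4, 31.7 and 16.0 FPKM with control siRNA. Its Panc10.05 pair differed by a ratio of -1.20, and the other lines by -0.16 to 0.10. CDT1 had 27.1, 26.2, 28.0 and 11.2 FPKM with PDX1 siRNA and 27.3, 28.5, 28.9 and 12.8 FPKM with control siRNA, with both HPAF-II libraries below all others. It was lower in 4 of 4 lines with ratios between -0.18 and -0.01, the smallest difference being in Panc10.05.

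The ratio of CDC6 to CDT1 mRNA was 0.514 with PDX1 siRNA and 1.22 with control siRNA in Panc10.05, and it was 0.508 and 0.435 in Panc05.04, 1.01 and 1.10 in Panc8 and 1.49 and 1.25 in HPAF-II, PDX1 siRNA first. GMNN, whose protein geminin blocks CDT1, was not a member; CDT1 over GMNN was 1.05 with PDX1 siRNA and 0.66 with control siRNA in Panc10.05, and lower with PDX1 siRNA than with control siRNA in the other 3 lines. DTL, the receptor that delivers CDT1 protein for degradation in S phase, had 13.3, 14.9, 13.2 and 4.96 FPKM with PDX1 siRNA, against 30.5, 13.9, 13.0 and 5.08 FPKM with control siRNA, a ratio of -1.14 in Panc10.05 and of -0.03 to 0.09 elsewhere.

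ORC1, the ATPase subunit of the origin recognition complex, had 11.4, 6.40, 11.6 and 2.07 FPKM with PDX1 siRNA, against 22.5, 5.76, 12.1 and 2.33 FPKM with control siRNA. The control library of Panc10.05 was the highest of the 8, and both HPAF-II libraries were the lowest. ORC6, of the same complex, had a ratio of -0.79 in Panc10.05 and was higher with PDX1 siRNA in the other 3 lines, up to 0.25.

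Polymerase and primase subunits differed least by role, with a median of -0.55 in Panc10.05 and 4 of 6 at or below -0.5. In Panc05.04, 5 of the 6 were higher, and their median of 0.19 was the highest of any role in any line. POLA1, the catalytic subunit of polymerase alpha, had 5.57, 6.59, 5.77 and 2.28 FPKM with PDX1 siRNA, against 11.2, 5.97, 6.98 and 2.56 FPKM with control siRNA, and stood lowest of the role in Panc10.05 (-0.90). POLE2, an accessory subunit of the leading strand polymerase epsilon, had 13.3, 9.27, 10.6 and 4.89 FPKM with PDX1 siRNA and 20.04, 9.88, 15.8 and 4.92 FPKM with control siRNA. It was one of few genes whose ratios in Panc8 (-0.53) and Panc10.05 (-0.56) were alike.

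PRIM1, the primase subunit that makes the RNA primer, stood apart from its role in Panc10.05. It had 21.5, 22.0, 17.8 and 10.6 FPKM with PDX1 siRNA, against 22.3, 17.2, 20.5 and 11.7 FPKM with control siRNA. The ratio was -0.05 in Panc10.05 and 0.34 in Panc05.04, and PRIM1 and CDT1 were the only members whose lowest ratio of the 4 lines was not in Panc10.05. POLE, the catalytic subunit of polymerase epsilon, had 8.26, 15.2, 9.25 and 5.21 FPKM with PDX1 siRNA and 12.5, 13.0, 11.5 and 5.98 FPKM with control siRNA, higher only in Panc05.04. POLA2, the accessory subunit of polymerase alpha, had 8.80, 15.4, 21.1 and 10.96 FPKM with PDX1 siRNA and 14.4, 13.2, 19.5 and 11.4 FPKM with control siRNA, higher in Panc05.04 and Panc8. POLD1, the catalytic subunit of polymerase delta, had a ratio of -0.44 in Panc10.05.

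Clamp, loader and strand processing genes had a median of -0.65 in Panc10.05 and of 0.12, -0.09 and -0.04 in Panc05.04, Panc8 and HPAF-II. PCNA, the sliding clamp and the most abundant member, had 107, 110.0, 367 and 106 FPKM with PDX1 siRNA, against 197, 113, 364 and 111 FPKM with control siRNA. In 3 lines its ratio lay between -0.06 and 0.01, whereas in Panc10.05 the level was 45.7% lower. The loader subunit RFC2 had 22.6, 15.9, 36.2 and 20.6 FPKM with PDX1 siRNA and 39.5, 15.0, 43.2 and 20.9 FPKM with control siRNA, lower in all lines but Panc05.04. The loader subunits RFC3, RFC5 and RFC4 had Panc10.05 ratios of -0.86, -0.49 and -0.29, in that order.

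LIG1, the ligase that seals lagging strand fragments, was lower in 4 of 4 lines. It had 12.5, 9.73, 19.7 and 4.67 FPKM with PDX1 siRNA, against 18.3, 10.2, 23.0 and 6.10 FPKM with control siRNA, and its ratio of -0.32 in HPAF-II was the lowest of any member there. FEN1, the nuclease that trims primer flaps, had 29.9, 51.3, 66.5 and 18.3 FPKM with PDX1 siRNA and 55.2, 46.5, 65.7 and 17.3 FPKM with control siRNA, higher in 3 lines and lower only in Panc10.05. RPA2, which coats single-stranded DNA, had 20.2, 21.4, 33.7 and 11.5 FPKM with PDX1 siRNA and 23.6, 19.2, 34.9 and 10.7 FPKM with control siRNA. Its Panc10.05 ratio of -0.22 was one of the smallest differences there.

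Nucleotide supply held 2 of the genes that were lower in every line. TYMS, which makes thymidylate, had 38.1, 124, 55.2 and 12.5 FPKM with PDX1 siRNA, against 62.8, 131, 77.5 and 15.3 FPKM with control siRNA, lower in 4 of 4 lines with ratios from -0.70 in Panc10.05 to -0.08 in Panc05.04. TK1, which salvages thymidine, had 68.8, 51.7, 85.3 and 50.1 FPKM with PDX1 siRNA and 111, 57.7, 101 and 54.0 FPKM with control siRNA, and was likewise lower in 4 of 4 lines. Levels of both genes overlapped between treatments, and the lines differed more than the treatments did. TYMS exons overlap those of ENOSF1 on the opposite strand.

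Ribonucleotide reductase did not follow that pattern. RRM2, its small subunit, had 48.2, 57.0, 40.5 and 14.3 FPKM with PDX1 siRNA, against 107, 45.0, 35.9 and 15.7 FPKM with control siRNA. It was higher in Panc8 (0.17, the highest ratio of that line) and Panc05.04 (0.34), and lower in HPAF-II (-0.12) and Panc10.05 (-1.14). RRM1, the large subunit, had 58.6, 68.4, 44.9 and 13.8 FPKM with PDX1 siRNA and 101, 64.9, 57.0 and 15.1 FPKM with control siRNA, so RRM1 over RRM2 was 1.22 with PDX1 siRNA and 0.941 with control siRNA in Panc10.05, and 1.11 and 1.59 in Panc8.

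**Figure D4:**
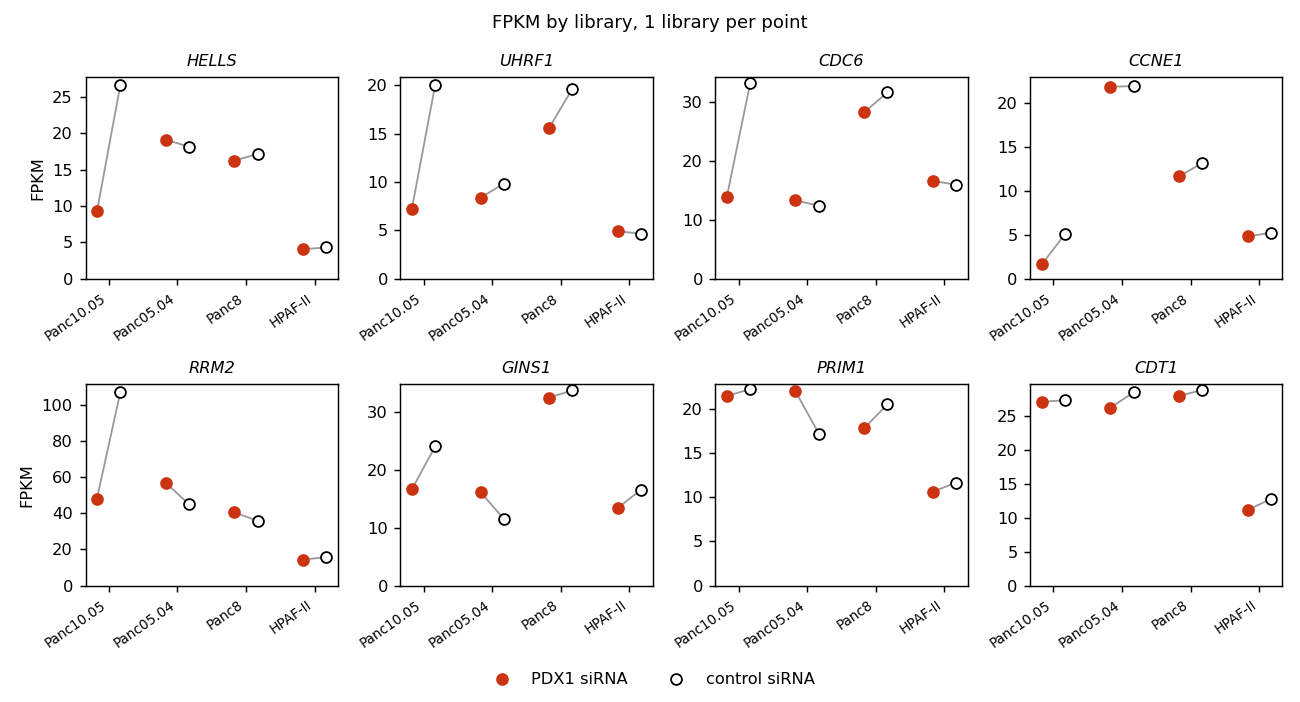
FPKM of 8 members with PDX1 siRNA (filled) and control siRNA (open) in each line, 1 library per point, axes starting at 0. HELLS, UHRF1, CDC6, CCNE1 and RRM2 are at least 2-fold lower with PDX1 siRNA in Panc10.05, GINS1 and PRIM1 are higher in Panc05.04, and CDT1 differs little within any line.

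Among cyclins and E2F factors, all 4 members were lower in Panc10.05, with a median of -0.83. CCNE1, cyclin E1, which activates CDK2 at the G1/S boundary, had 1.62, 21.8, 11.6 and 4.81 FPKM with PDX1 siRNA, against 5.09, 21.9, 13.2 and 5.23 FPKM with control siRNA. It was lower in 4 of 4 lines, by 68.1% in Panc10.05 and by 0.418% to 11.6% in the others; its levels in Panc05.04 stood above all other libraries. CCNE2, cyclin E2, had 3.69, 6.75, 9.58 and 1.88 FPKM with PDX1 siRNA and 8.00, 8.18, 9.25 and 2.13 FPKM with control siRNA. The ratio of CCNE1 to CCNE2 was 0.439 with PDX1 siRNA and 0.636 with control siRNA in Panc10.05, and at least 1.21 in every library of the other lines.

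E2F1 and E2F2 are activator E2F factors whose own genes are E2F targets. E2F2 was the least abundant member and had 0.925, 1.11, 6.63 and 1.23 FPKM with PDX1 siRNA, against 2.18, 1.68, 6.63 and 1.38 FPKM with control siRNA. The Panc8 libraries had the same level to 3 digits, and the other 3 lines were lower with PDX1 siRNA. E2F1 had ratios of -0.56, 0.07, 0.05 and -0.12 in Panc10.05, Panc05.04, Panc8 and HPAF-II.

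Genes that handle chromatin behind the fork included the lowest ratios of all. HELLS, a remodeller needed for DNA methylation, had 9.28, 19.1, 16.2 and 4.07 FPKM with PDX1 siRNA, against 26.6, 18.2, 17.2 and 4.30 FPKM with control siRNA. UHRF1, which reads hemimethylated DNA and brings in the maintenance methyltransferase DNMT1, had 7.24, 8.38, 15.6 and 4.92 FPKM with PDX1 siRNA and 20.1, 9.81, 19.6 and 4.63 FPKM with control siRNA. In Panc10.05 HELLS was 65.1% and UHRF1 63.9% lower, while in HPAF-II HELLS was lower by 5.45% and UHRF1 was higher (a ratio of 0.07). CDCA7, a partner of HELLS, had 18.4, 24.0, 15.1 and 5.38 FPKM with PDX1 siRNA and 36.4, 27.9, 19.7 and 5.17 FPKM with control siRNA, and was lower in all lines but HPAF-II.

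The histone chaperone subunits CHAF1A and CHAF1B, which place histones on new DNA, had Panc10.05 ratios of -0.64 and -0.70 and lay between -0.10 and 0.09 elsewhere. SLBP, which binds the stem-loop of histone mRNAs, had one of the smaller differences in Panc10.05, with 66.6 FPKM with PDX1 siRNA and 94.3 FPKM with control siRNA. CLSPN, or Claspin, which passes the checkpoint signal from stalled forks to CHEK1, had 1.39, 4.36, 7.18 and 1.53 FPKM with PDX1 siRNA, against 4.23, 4.99, 6.54 and 1.71 FPKM with control siRNA. Its ratio in Panc10.05 was -1.13, and only in Panc8 was it above 0.

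Averaged over the 4 lines, all 46 genes were lower (47.3% of all tested genes), with a median of -0.25; without Panc10.05 the median was -0.04 and 32 were lower (44.7% of all tested genes). The lowest ratio of the 4 lines fell in Panc10.05 for 44 of 46 genes (38.2% of all tested genes), and the highest in Panc05.04 for 31 (32.0% of all). Both held for 30 genes (19.7% of all). Over the 46 genes, the ratios of any pair of lines had Pearson correlations between -0.42 (HPAF-II with Panc10.05) and 0.19; members share libraries, so this is a description only.

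No gene (0.0%) passed an adjusted p of 0.05 across lines in limma, with line as the block and Benjamini-Hochberg adjustment over the 12110 genes, and the members' adjusted p lay between 0.8975 and 0.9915. At an unadjusted limma p under 0.05 there were 440 genes, of which the lower ones made up 1.61% of those tested, and 3 members, all lower. The mean log2 ratio (± SD over the 4 lines) was -0.39 ± 0.27 for TYMS, with an unadjusted limma p of 0.01691. It was -0.28 ± 0.19 for LIG1 (unadjusted limma p of 0.03196) and -0.29 ± 0.26 for TK1 (unadjusted limma p of 0.04402). These were the genes with modest differences in every line rather than those with the largest difference in Panc10.05: HELLS averaged -0.37 ± 0.70 (limma adjusted p 0.8975) and UHRF1 -0.45 ± 0.62 (limma adjusted p 0.8975). Lower in 4 of 4 lines were MCM7, CDT1, POLE2, LIG1, TYMS, TK1 and CCNE1, 7 of 46 against 5.8% of all tested genes. With 3 residual degrees of freedom, a p that misses the threshold does not show that the treatments were alike.

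The lines differed in their starting levels. With control siRNA, 40 of 46 genes were lowest in HPAF-II (29.4% of all tested genes were), and the highest level fell in Panc10.05 for 22 (25.0% of all), in Panc8 for 19 (26.0%) and in Panc05.04 for 5 (22.5%). With PDX1 siRNA, the highest level fell in Panc8 for 28 (25.6% of all tested genes), in Panc05.04 for 16 (26.4%) and in Panc10.05 for 2 (23.1%). No source states a common scaling of the 4 tables, so levels set across lines carry that limit. Within Panc10.05 the ratio did not track the control level (Pearson r of -0.01 over 46 genes).

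Other genes of the same machinery, taken from lists by function, were mostly lower in Panc10.05 too, at medians nearer 0 than that of the members. These lists, like the members, were chosen with earlier results of these data known. Of 35 further replication genes, 32 were lower in Panc10.05 (median -0.47), against 50.5% of all tested genes. In Panc05.04, 28 of the 35 were higher (median 0.12), against 55.8% of all tested genes. The 3 with the largest mean ratio in size were POLE4, CHTF18 and RECQL4. POLE4, an accessory subunit of polymerase epsilon, had 30.8, 27.1, 42.1 and 19.4 FPKM with PDX1 siRNA and 57.1, 25.6, 57.0 and 19.9 FPKM with control siRNA. CHTF18, of an alternative clamp loader, was lower in 4 of 4 lines, with 13.4, 10.4, 22.7 and 7.10 FPKM with PDX1 siRNA and 18.4, 12.3, 24.2 and 8.17 FPKM with control siRNA. RECQL4, a helicase that acts in initiation, had 11.1, 19.9, 14.9 and 7.26 FPKM with PDX1 siRNA and 18.2, 20.1, 16.2 and 7.96 FPKM with control siRNA.

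At least 2-fold lower on FPKM + 1 in Panc10.05 was TIPIN, a fork protection factor, with 9.09, 10.6, 15.1 and 5.53 FPKM with PDX1 siRNA and 20.2, 9.11, 14.8 and 4.64 FPKM with control siRNA; without the added 1, TICRR, MCM8 and DBF4 were as well. POLD4, the smallest subunit of polymerase delta, was one of 3 that were higher in Panc10.05, at 32.7 FPKM with PDX1 siRNA and 16.7 FPKM with control siRNA. The other two, ORC4 and RPA1, had ratios of 0.10 and 0.02.

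Of 17 checkpoint and repair genes with a row of their own, 17 were lower in Panc10.05 (median -0.56), against 50.5% of all tested genes. In Panc05.04, 15 were higher (median 0.19), against 55.8% of all tested genes. PRKDC, the catalytic subunit of the DNA-dependent protein kinase, had 27.7, 75.7, 21.1 and 15.5 FPKM with PDX1 siRNA and 63.8, 51.1, 30.1 and 17.7 FPKM with control siRNA, more than 2-fold lower in Panc10.05 and higher only in Panc05.04. EXO1, an exonuclease of mismatch repair, had 6.96, 8.04, 8.59 and 3.38 FPKM with PDX1 siRNA and 15.0, 7.01, 9.09 and 3.54 FPKM with control siRNA.

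Of 11 further genes of nucleotide supply (enzymes and the nucleoside transporter SLC29A1), 9 were lower in Panc10.05, against 50.5% of all tested genes. DTYMK, which phosphorylates thymidylate, had 50.2, 53.0, 32.2 and 20.8 FPKM with PDX1 siRNA and 85.6, 43.0, 40.3 and 24.2 FPKM with control siRNA. CTPS1, which makes CTP, went both ways, at 69.8 and 33.2 FPKM in Panc05.04 but 9.88 and 20.9 FPKM in Panc10.05, PDX1 siRNA first. SAMHD1, which breaks down deoxynucleotides, was 123 FPKM with PDX1 siRNA and 18.4 FPKM with control siRNA in Panc8, and between 18.7 and 27.8 FPKM in all libraries of the other lines.

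G1/S regulators outside the 46 were mixed. Of 30, 22 were lower in Panc10.05 (median -0.46), against 50.5% of all tested genes. In Panc05.04, 22 were higher (median 0.13), against 55.8% of all tested genes. CCND1, cyclin D1, had 63.0, 113, 114 and 152 FPKM with PDX1 siRNA, against 136, 133, 114 and 147 FPKM with control siRNA, and was more than 2-fold lower only in Panc10.05. CDKN2B, which encodes the kinase inhibitor p15, had 8.87, 1.36, 0.0791 and 81.9 FPKM with PDX1 siRNA and 16.2, 3.55, 0.0495 and 68.0 FPKM with control siRNA, so that HPAF-II stood above the other lines. CDKN2C, which encodes the related p18, was lower in 4 of 4 lines, with 33.2, 6.29, 14.3 and 1.78 FPKM with PDX1 siRNA and 38.8, 11.01, 16.2 and 2.10 FPKM with control siRNA.

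CDKN1A, which encodes the kinase inhibitor p21, was also lower in Panc10.05, at 3.49 FPKM with PDX1 siRNA and 8.63 FPKM with control siRNA, and higher in Panc8, at 105.6 FPKM and 73.5 FPKM in the same order. CDKN1B, encoding the inhibitor p27, was at 66.1 FPKM with PDX1 siRNA and 54.0 FPKM with control siRNA in Panc10.05.

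The E2F repressors E2F7 and E2F8, themselves S phase genes, had Panc10.05 ratios of -1.05 and -0.69, and CCNA2, cyclin A2, of -0.63. MYC, a growth factor-driven activator, had 116, 95.0, 67.0 and 171 FPKM with PDX1 siRNA and 111, 84.8, 59.1 and 161 FPKM with control siRNA, higher by 0.06 to 0.18 in every line. RRM2B, the p53-induced reductase subunit, was at 11.1 FPKM with PDX1 siRNA and 7.65 FPKM with control siRNA in Panc10.05. None of these genes passed an adjusted p of 0.05 across lines in limma.

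Within Panc10.05, the median ratio was -0.86 for the 24 members with a match to a motif searched and -0.77 for the 17 with a promoter and no match. For the 5 with no promoter found it was -1.07. Only exact matches were searched, so members without one can hold other E2F sites, and a role of E2F was not tested. CDT1, at -0.01, held a match as HELLS did, at -1.43. Of the 46 genes, 18 have exons that overlap another gene, 15 of them on the opposite strand, where reads are separated only in stranded libraries. RRM2, POLA2, FEN1, PRIM1 and POLD1 overlap a protein-coding gene on the same strand, which strand does not separate, so their values are uncertain to that extent.

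Other measures also differed in Panc10.05. The leukocyte list summed to between 8.95 and 93.0 FPKM in PDX1 siRNA libraries and between 10.9 and 77.7 FPKM in control siRNA libraries; CD14 was at 17.3 FPKM with PDX1 siRNA and 3.56 FPKM with control siRNA in Panc10.05, while PTPRC and CD3E were at 0 in both. CD68 had ratios of 0.59, -1.22, 1.08 and -0.04 in Panc10.05, Panc05.04, Panc8 and HPAF-II, so that Panc05.04 and Panc8 differed more than Panc10.05 did. Of the 5 epithelial markers, EPCAM (0.72), KRT19 (0.26) and CDH1 (0.17) were higher in Panc10.05 and KRT8 (-0.38) and KRT18 (-0.17) lower; EPCAM was higher in Panc05.04 (0.55) and Panc8 (0.48) as well. Panc10.05 was also the line with the least PDX1 and the widest spread of ratios over all genes. The part of these in the lower replication genes was not tested.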

How the data were processed

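Total RNA of 8 libraries was sequenced, 1 per treatment in each of 4 cell lines. The submitters' processing notes name genome build hg38 and the tools TopHat2 (version 2), Cufflinks and Cuffdiff; the annotation and strandedness are not given in the sources used. Per the file headers, the authors deposited for each line an FPKM value (mapped fragments scaled by transcript length and library size) for both libraries, with Cuffdiff's p-value and q-value, which compare 2 libraries. Count models need counts and were not fitted; total depth is unknown, and no counting interval is given.

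Differences were taken within each table, as log2(FPKM + 1) with PDX1 siRNA minus that with control siRNA. Within a line there was no test; a gene was counted as 2-fold lower at a ratio of -1 or lower with at least 1 FPKM in either library. Across lines, genes with a mean of at least 1 FPKM (12110) entered limma 3.58.1 (R 4.3.3) with line as the block, eBayes with trend (3 residual and 2.94 prior degrees of freedom) and Benjamini-Hochberg adjustment over all of them. Pairs are by cell line, as labelled: libraries of a line deviated together from the group means (r from 0.844 to 0.963) and libraries of different lines did not (r of -0.152 or lower, partly set by subtracting a mean over 4 lines). The limma p-values set the mean ratio of a gene against the spread of its ratios between lines, which eBayes partly pools over genes. The limma step was run on simulated data with known changes, where only the size of the estimates was required to match. That does not show how many such changes would pass the adjusted p.

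Members and lists were chosen with earlier results of these data known. Values in every library were printed for the 2 members of each role with the largest mean ratio in size and for the 6 lowest and 3 highest ratios of each line, and others were added for their roles; of each other list, the 3 genes with the largest mean ratio in size were named, and others for their role; POLD4, TIPIN, TICRR, MCM8, DBF4, ORC4, RPA1, CTPS1, CD14 and CD68 were named after their values were seen. Some genes of these lists are not reported here. Exon overlaps were read from GENCODE v29. E2F motifs were searched on both strands in RefSeq promoters (GRCh38.p14, 250 bases before to 50 after the start); 41 of 46 members matched by symbol. The alternatives tried were other pseudocounts (0.1 and 5), filters, scaling, variance model, no replicate block, and leaving out each line. Other steps ran in Python 3.11.15 with pandas 2.3.3 and numpy 2.4.6, and figures were drawn with matplotlib 3.10.9.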

Additional observations from a re-analysis of the deposited data

Results flagged for a closer look

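In 9 of 47 genes, 1 of the 4 lines lay apart from the others by a gap that chance gives in about 1 of 20 independent groups. In all 9 that line was Panc10.05 at the low end, where 38.2% of all tested genes had their lowest ratio. These genes share the same libraries, and the share of all tested genes with such a gap was not counted. The count is therefore a description only. The log2 ratios in Panc10.05 were -0.87 for MCM7, -0.87 for PCNA, -0.86 for RFC3, -0.87 for FEN1, -1.21 for CCNE1, -1.43 for HELLS, -0.64 for CHAF1A, -0.50 for SLBP and -1.14 for DTL. These were the members whose other 3 lines lay closest together relative to the gap, and not those with the lowest ratios as such: UHRF1 (-1.35) and MCM4 (-1.28) were not among them. The same held for 3 of 10 medians, namely those of licensing (-0.86), chromatin and histone handling (-0.82) and the fork checkpoint (-1.13) in Panc10.05.

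By the same rule, levels of single lines stood apart in 6 of 46 genes with PDX1 siRNA and 2 of 46 with control siRNA. The 2 of 46 with control siRNA were no more than that rule gives by chance in independent groups. The genes share the same libraries, and the share of all tested genes with such a gap in level was not counted. Both counts are therefore a description only. With PDX1 siRNA, HPAF-II was lowest for MCM6 (12.8 FPKM) and CDT1 (11.2 FPKM), Panc8 was highest for GINS1 (32.6 FPKM), PCNA (366.7 FPKM) and E2F2 (6.63 FPKM), and Panc05.04 was highest for GINS4 (12.9 FPKM). With control siRNA, HPAF-II was lowest for CDT1 (12.8 FPKM) and Panc8 highest for E2F2 (6.63 FPKM). No source states a common scaling of the lines' tables.

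The members' median also differed between lines. The median log2 ratio was lower in Panc10.05 than in Panc05.04 by -0.91, with 46 of 46 genes lower in Panc10.05 and 29 of 46 higher in Panc05.04, where 55.8% of all tested genes were higher. With 1 library per treatment in each line, this difference was not tested.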

How the results depend on the processing

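No gene passed an adjusted p of 0.05 in limma under any of the 11 alternatives run on the count of genes, the smallest adjusted p lying between 0.7752 and 1.0. Without the replicate block, that is without the pairing by line, 0 genes passed, and 2 had an unadjusted p under 0.05 instead of 440. The sign of the members' median within each line was kept in all alternatives of pseudocount and scaling. With ratios centred on the median gene of each line, 34 members instead of 33 were lower in HPAF-II. In Panc05.04, 19 instead of 17 were lower with that centring. With a pseudocount of 5, 7 members instead of 12 were at least 2-fold lower in Panc10.05, since a larger pseudocount shrinks ratios of low genes, and 15 were with 0.1. A filter at a mean of 5 FPKM left 44 members.

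Leaving out 1 line moved the median of the mean ratios between -0.35 and -0.04 and the number of members lower on average between 32 and 46; both extremes at the weak end came from leaving out Panc10.05. The mean turned sign without Panc10.05 for 14 members. Over the 4 omissions it ranged from -0.30 to 0.0032 for MCM3, -0.28 to 0.039 for GINS1, -0.45 to 0.0855 for GINS2, -0.24 to 0.11 for ORC6, -0.20 to 0.0865 for POLA2, -0.12 to 0.0545 for PRIM1 (also without Panc8 or HPAF-II), -0.18 to 0.0206 for POLD1, -0.29 to 0.0393 for RFC3, -0.26 to 0.0781 for FEN1, -0.0591 to 0.063 for RPA2 (also without Panc8), -0.36 to 0.13 for RRM2, -0.21 to 0.0005 for E2F1, -0.21 to 0.0338 for CHAF1A and -0.39 to 0.0252 for DTL. With 1 library per treatment and line, and unknown depth, small differences were not detectable, and larger ones could be missed too. TYMS, with a mean log2 ratio of -0.39 and an SD of 0.27 over the 4 lines, had a limma adjusted p of 0.8975.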
